A study of Mus musculus with 6 samples.

Results

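The genes described here are 40 mouse genes of the ATF4 and amino acid stress response: serine and one-carbon enzymes, other amino acid enzymes, amino acid transporters, transcription factors, stress effectors and secreted factors. They were chosen by gene symbol from a list of known members of the response, with earlier results of these data known. The platform annotation named a probe set for 38 of the 40, out of 19505 genes measured in all. Pycr1 and Gdf15 were not analysed here. For a gene with several probe sets, the one with the highest mean was taken, which among these genes concerned Ddit3 alone.

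Cells sense a shortage of amino acids, misfolded protein in the endoplasmic reticulum or mitochondrial faults through kinases that phosphorylate the translation factor eIF2. This lowers translation in general but favours the mRNA of ATF4, a basic leucine zipper transcription factor. ATF4 is regulated largely at the level of translation, so its mRNA is only a part of its control. Together with C/EBP partners, ATF4 switches on genes for amino acid synthesis and uptake, serine and folate metabolism, tRNA charging and, in stressed muscle, the hormone FGF21.

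C2C12 is a mouse myoblast line that fuses into myotubes when serum is lowered, and all samples were taken on day 3 of differentiation in 2% horse serum. The MyoD + Dox group (2 arrays) held cells with an integrated lentiviral Myod1 transgene that had received doxycycline, the drug that turns the transgene on, for which the methods give 1 µg/mL. The uninduced group (2 arrays) held the same transduced cells without the drug. The non-transduced group (2 arrays) held cells with no virus that had also received doxycycline. MyoD + Dox and uninduced cells therefore differ in both the drug and the transgene, and uninduced and non-transduced cells differ in both the virus and the drug, so these cannot be told apart within either comparison. Transduced cells were also kept in blasticidin, an inhibitor of translation, to select for the virus, and no such step is given for non-transduced cells, so both comparisons with non-transduced cells hold this difference as well. MyoD is the transcription factor that commits cells to the muscle lineage. The RNA was read on Clariom S mouse arrays, and values below are log2 of the deposited signal intensity. A signal is compared between arrays for 1 probe set, never between genes.

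Whether the 2 arrays of a group stand for separate cultures is not given in the labels, and p-values therefore cover only sample-to-sample spread, possibly technical. With 2 arrays against 2, an exact permutation test cannot give a two-sided p below 0.333, so the tests below come from limma, fitted across all genes. Myod1 gave log2 signals of 11.51 and 12.54 on the MyoD + Dox arrays, 9.00 and 7.91 on the uninduced arrays and 8.72 and 10.68 on the non-transduced arrays, so both MyoD + Dox arrays were the highest. The median signal was 45.4 to 48.4 intensity units on the 6 arrays, and background lay at a log2 signal of 6.01 to 6.15. Markers of macrophages, endothelium, adipocytes and epithelium averaged 3.60 to 4.42 over each list on every array, below background. Of 3 neuron and Schwann cell markers, Rbfox3 and Snap25 were below background throughout, and Syt1 gave 5.17 and 4.73 on the MyoD + Dox arrays, 6.93 and 6.35 on the uninduced arrays and 6.48 and 3.98 on the non-transduced arrays. The part of such cells in the results was not tested. The myogenic marker list, from Des to Myog, averaged 11.59 to 15.07. The second non-transduced array and the second uninduced array stood apart from their group partners in muscle genes: 25 of 26 myotube genes differed at least 2-fold within the non-transduced pair and 25 of 26 within the uninduced pair, against 4 of 26 within the MyoD + Dox pair.

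ATF4 dimers are known to bind a composite C/EBP-ATF site, spelled TGATGNAAN on one strand and NTTNCATCA on the other. Promoter windows came from the RefSeq table for GRCm38.p6 and run from 250 bases before to 50 bases after a gene start, and some genes have several. Of 27025 genes with a window, 1215 (4.5%) held this motif in at least 1 of them. Among the 32 measured stress genes with a window, 10 (31.2%) held it. The 6 sequences shown here are stretches of promoter around the motif, each read 5′ to 3′ on the strand of its gene with the motif in capitals. Asns, Chac1 and Fgf21 are shown because their signals were at least 2-fold higher in MyoD + Dox than in uninduced cells, and Atf3, Nupr1 and Herpud1 because theirs were not.
Asns (chr6:7693194-7693262, minus strand): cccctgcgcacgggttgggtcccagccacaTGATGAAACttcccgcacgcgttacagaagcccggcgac
Chac1 (chr2:119351018-119351086, plus strand): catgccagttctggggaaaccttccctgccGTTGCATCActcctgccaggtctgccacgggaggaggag
Fgf21 (chr7:45615592-45615660, minus strand): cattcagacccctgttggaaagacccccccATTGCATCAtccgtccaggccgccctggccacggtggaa
Atf3 (chr1:191183406-191183474, minus strand): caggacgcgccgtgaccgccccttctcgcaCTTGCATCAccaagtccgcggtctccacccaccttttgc
Nupr1 (chr7:126625543-126625611, minus strand): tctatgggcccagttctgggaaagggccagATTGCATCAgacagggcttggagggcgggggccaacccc
Herpud1 (chr8:94386286-94386354, plus strand): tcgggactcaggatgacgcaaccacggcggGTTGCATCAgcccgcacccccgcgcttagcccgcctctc

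The other measured genes with the motif were Slc1a4, Slc7a11, Trib3 and Vldlr. The share was 3 of 10 (30%) among genes at least 2-fold higher in MyoD + Dox than in uninduced cells and 7 of 22 (31.8%) among the other measured genes. None of the 6 serine and one-carbon enzymes with an entry held these letters in a window. A match is a description of the sequence, and binding was not measured.

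In MyoD + Dox cells, 12 of the 38 measured genes had a signal at least 2-fold above uninduced cells, against 3.69% of all genes, and none was 2-fold lower. Measured differences are counted here, signals below background included. Of the 38, 28 were above background on all arrays, whereas the shares of all genes, here and in the other comparisons, include dim genes without limit. Shares over genes of like brightness were not taken. The 12 were 5 of the 7 serine and one-carbon enzymes, 2 of the 5 other enzymes, 3 of the 9 transporters, Fgf21 and Stc2. None of the 8 transcription factors and none of the 6 stress effectors reached 2-fold. The arrays of the groups did not overlap for 20 genes that were higher (23.8% of all genes), 1 of them, Ppp1r15a, below background on all arrays, and for 4 that were lower (24.8% of all genes). The median log2 difference of the 38 was 0.43, against -0.01 over all genes. No gene passed the adjusted threshold in limma (0% of all genes), and adjusted p of the 38 ran between 0.67 and 0.994. Without either non-transduced array, 15 genes passed, 0 of them among the 38. At an unadjusted p under 0.05, limma called 4 of the 38 higher (4.22% of all genes) and 0 lower (3.19% of all genes). The 4 were Mthfd2, Slc7a5, Asns and Phgdh. The count of 12 ranged between 10 and 14 when 1 array was left out, and was 11 with signals raised to the background, since Stc2 was below background in uninduced cells. The count of 4 rose without either non-transduced array. It fell without either MyoD + Dox array and without uninduced array 2.

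**Figure D1:**
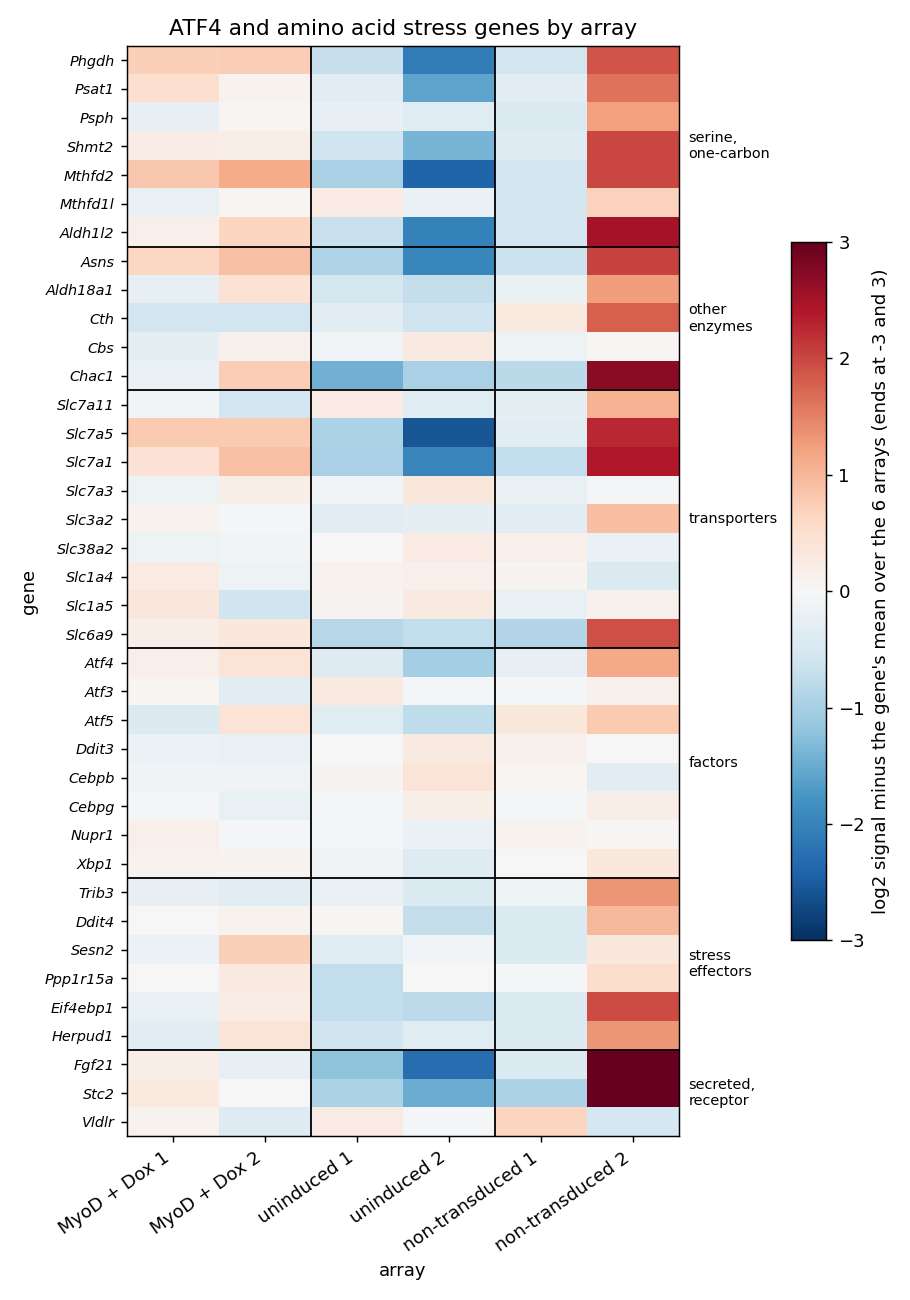
Heat map of the 38 measured genes (rows, by role) on the 6 arrays (columns, in groups MyoD + Dox, uninduced and non-transduced). Colour is the log2 signal minus the gene's own mean over the 6 arrays, with the scale ending at -3 and 3. The second non-transduced array was the highest of the 6 for 27 of the 38 genes and the second uninduced array the lowest for 19.

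Serine is made from a glycolytic intermediate in a chain that begins with Phgdh. Phgdh had log2 signals of 11.23 and 11.26 on the MyoD + Dox arrays, 9.83 and 8.43 on the uninduced arrays and 9.96 and 12.42 on the non-transduced arrays. The MyoD + Dox arrays lay above both uninduced arrays and between the non-transduced ones. The log2 difference of MyoD + Dox minus uninduced was 2.12 (standard error 0.85, 4.33-fold, unadjusted p = 0.0492 and adjusted p = 0.67 from limma). Psat1, the transaminase that acts next, gave 14.40 and 13.99 on the MyoD + Dox arrays, 13.55 and 12.31 on the uninduced arrays and 13.56 and 15.52 on the non-transduced arrays. It was 2.40-fold higher in MyoD + Dox than in uninduced cells (log2 difference 1.26, standard error 0.72, adjusted p = 0.688). As for Phgdh, the MyoD + Dox arrays lay above both uninduced arrays and between the non-transduced ones. Psph, the phosphatase that completes serine, differed less, at 9.57 and 9.87 on the MyoD + Dox arrays, 9.57 and 9.44 on the uninduced arrays and 9.38 and 11.04 on the non-transduced arrays.

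The mitochondrial folate branch takes the carbon of serine onward. Mthfd2, its methylene-tetrahydrofolate dehydrogenase, had the largest MyoD + Dox against uninduced difference of the 38 genes. Its signals were 11.92 and 12.22 on the MyoD + Dox arrays, 10.13 and 8.70 on the uninduced arrays and 10.54 and 13.11 on the non-transduced arrays. This was a 6.29-fold difference between MyoD + Dox and uninduced cells (log2 2.65, standard error 0.89, unadjusted p = 0.0259, adjusted p = 0.67). Shmt2, which splits serine into glycine and a one-carbon unit in mitochondria, gave 11.78 and 11.72 on the MyoD + Dox arrays, 10.96 and 10.16 on the uninduced arrays and 11.16 and 13.55 on the non-transduced arrays. Its log2 difference of 1.19 (standard error 0.76) had an adjusted p of 0.702. Aldh1l2, which oxidises the formyl unit to carbon dioxide, gave 7.80 and 8.31 on the MyoD + Dox arrays, 6.98 and 5.62 on the uninduced arrays and 7.07 and 10.15 on the non-transduced arrays. The second uninduced value of Aldh1l2 was below background, and its log2 difference was 1.76 (standard error 1.02, adjusted p = 0.689). For both genes the MyoD + Dox arrays lay above the uninduced arrays. Mthfd1l, which releases formate from mitochondria, did not share this order, with 9.14 and 9.42 on the MyoD + Dox arrays, 9.60 and 9.16 on the uninduced arrays and 8.80 and 10.05 on the non-transduced arrays. The median log2 difference of the 7 enzymes was 1.26.

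Asns, asparagine synthetase and a standard readout of ATF4 activity, had signals of 14.24 and 14.50 on the MyoD + Dox arrays, 12.70 and 11.68 on the uninduced arrays and 12.99 and 15.66 on the non-transduced arrays. It was 4.52-fold higher in MyoD + Dox than in uninduced cells (log2 difference 2.18, standard error 0.87, unadjusted p = 0.0471, adjusted p = 0.67), with no overlap of those arrays. Chac1, which degrades glutathione, gave 6.89 and 7.82 on the MyoD + Dox arrays, 5.65 and 6.11 on the uninduced arrays and 6.29 and 9.79 on the non-transduced arrays. The uninduced signals of Chac1 lay at the background, 1 array above it and 1 below, and the log2 difference was 1.47 (standard error 1.09, adjusted p = 0.728). Aldh18a1, the first enzyme of proline synthesis, was 1.65-fold higher in MyoD + Dox than in uninduced cells, with no overlap. Cth, the last enzyme of cysteine synthesis from methionine, was below background on all 4 arrays of transduced cells, and Cbs, the enzyme before it, was below background on all 6 arrays.

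**Figure D2:**
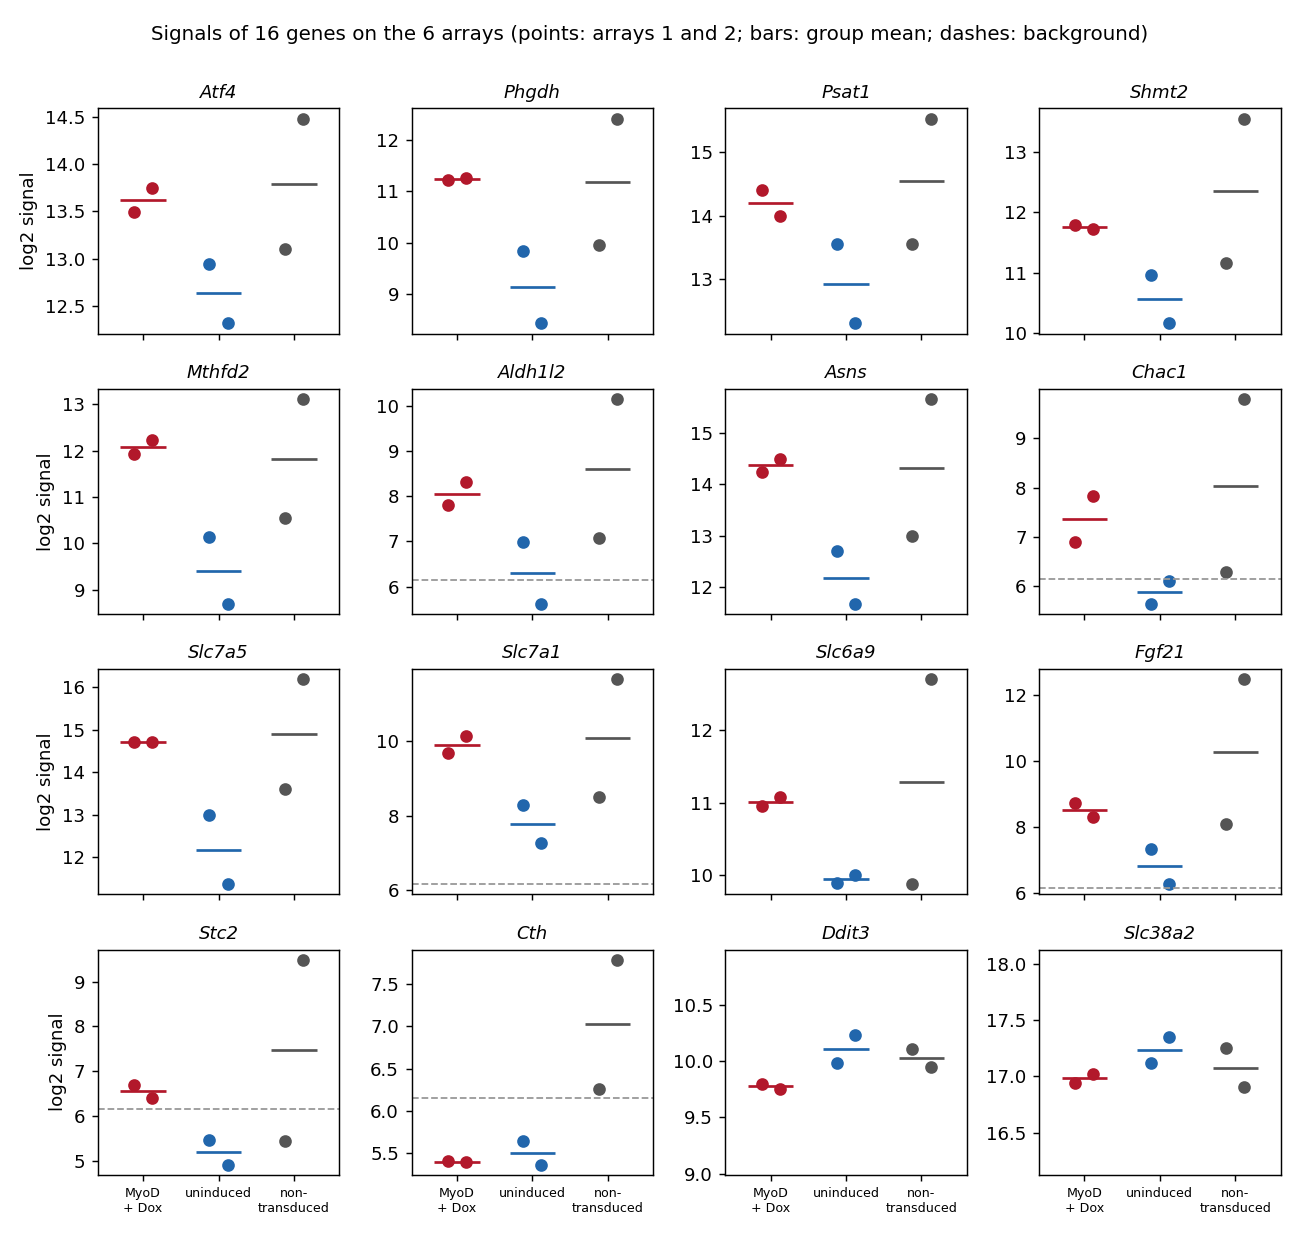
Log2 signal of 16 genes, with a point for each of the 2 arrays of a group (first left, second right), a bar for the group mean and, for dim genes, a dashed line at the highest array background of 6.15. For 13 genes, from Atf4 to Stc2, the MyoD + Dox points lie above the uninduced points, and the 2 non-transduced points of most genes are far apart. Ddit3, shown by its brighter probe set, and Slc38a2 lie within 0.49 and 0.45 on the log2 scale over all 6 arrays.

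Of the 9 transporters, 3 were at least 2-fold higher in MyoD + Dox than in uninduced cells. Slc7a5, the light chain of the LAT1 exchanger that brings in leucine and other large neutral amino acids, gave 14.72 and 14.71 on the MyoD + Dox arrays, 12.99 and 11.37 on the uninduced arrays and 13.60 and 16.18 on the non-transduced arrays. Its log2 difference between MyoD + Dox and uninduced cells was 2.54 (5.8-fold, standard error 0.91, unadjusted p = 0.0336, adjusted p = 0.67). Slc7a1, a carrier of arginine and lysine, gave 9.68 and 10.13 on the MyoD + Dox arrays, 8.27 and 7.26 on the uninduced arrays and 8.51 and 11.66 on the non-transduced arrays, so that MyoD + Dox exceeded uninduced by 2.14 on the log2 scale (standard error 1.0, adjusted p = 0.68). Slc6a9, the glycine transporter GlyT1, gave 10.95 and 11.07 on the MyoD + Dox arrays, 9.89 and 10.01 on the uninduced arrays and 9.88 and 12.69 on the non-transduced arrays, so that MyoD + Dox exceeded uninduced by 1.06 (standard error 0.85, adjusted p = 0.745). For all 3, the MyoD + Dox arrays lay above both uninduced arrays.

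Slc3a2, the heavy chain that carries LAT1 to the membrane, differed less than its partner, with a log2 difference of 0.32 (standard error 0.41). Its arrays did not overlap, at 15.74 and 15.57 in MyoD + Dox and 15.30 and 15.37 in uninduced cells. Slc38a2, the sodium-coupled carrier of small neutral amino acids, had 16.94 and 17.02 on the MyoD + Dox arrays, 17.12 and 17.35 on the uninduced arrays and 17.25 and 16.90 on the non-transduced arrays. Here the uninduced arrays were the higher ones, by 0.26 on the log2 scale, and again did not overlap with MyoD + Dox. Slc1a4 and Slc1a5, exchangers of neutral amino acids, stayed within ranges of 0.70 and 0.94 on the log2 scale over the 6 arrays. The cystine carrier Slc7a11 and the arginine carrier Slc7a3 were below background on all 6 arrays. The median log2 difference of the 9 transporters was -0.08. Its sign turned without any single transduced array, to between 0.03 and 0.17, and it was 0.12 with the lowest 40% of genes left out and 0.10 with signals raised to the background.

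Atf4 itself gave 13.49 and 13.75 on the MyoD + Dox arrays, 12.95 and 12.32 on the uninduced arrays and 13.10 and 14.48 on the non-transduced arrays. Both MyoD + Dox arrays lay above both uninduced arrays, and the second non-transduced array was the highest. The log2 difference between MyoD + Dox and uninduced cells was 0.98 (1.97-fold, standard error 0.49, unadjusted p = 0.0928, adjusted p = 0.683). Among the other factors, Atf5, a relative of ATF4, gave 7.08 and 7.90 on the MyoD + Dox arrays, 7.13 and 6.73 on the uninduced arrays and 7.80 and 8.28 on the non-transduced arrays. Ddit3, the stress factor CHOP, gave 9.80 and 9.75 on the MyoD + Dox arrays, 9.98 and 10.23 on the uninduced arrays and 10.11 and 9.95 on the non-transduced arrays. Its MyoD + Dox arrays were the lowest of the 6, and the log2 difference to uninduced cells was -0.33 (standard error 0.20, adjusted p = 0.699). These values are of the brighter of the 2 Ddit3 probe sets. The other, with a mean log2 signal of 7.55, is not given by array here. Cebpb and Cebpg, dimer partners of ATF4, also had MyoD + Dox arrays below the uninduced ones, by 0.34 and 0.21 on the log2 scale. Atf3, which follows ATF4 in many stresses, and Nupr1, a small stress-induced chromatin protein, overlapped between these groups. Xbp1, the factor activated by splicing in the unfolded protein response, gave 14.57 and 14.53 on the MyoD + Dox arrays against 14.07 to 14.34 on the uninduced arrays. The values used here do not separate its spliced and unspliced forms. Over all 6 arrays Atf4 spanned 2.16 on the log2 scale, Atf5 1.55 and the other 6 factors 0.35 to 0.72.

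The stress effectors differed between MyoD + Dox and uninduced cells by 0.02 to 0.76 on the log2 scale. Eif4ebp1, the repressor of cap-dependent translation, gave 10.94 and 11.40 on the MyoD + Dox arrays, 10.43 and 10.39 on the uninduced arrays and 10.73 and 13.12 on the non-transduced arrays. Herpud1, part of the degradation machinery of the endoplasmic reticulum, gave 15.15 and 15.87 on the MyoD + Dox arrays, 14.89 and 15.12 on the uninduced arrays and 15.06 and 16.80 on the non-transduced arrays. Neither gene's MyoD + Dox arrays overlapped the uninduced ones. Ddit4 and Sesn2, which restrain mTORC1, overlapped between MyoD + Dox and uninduced cells. Trib3, a pseudokinase that feeds back on ATF4, lay near background on 5 arrays, at 6.04 to 6.31, and at 7.76 on the second non-transduced array. Ppp1r15a, the eIF2 phosphatase subunit GADD34, was below background on all 6 arrays.

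Fgf21, a hormone that stressed muscle can release, varied most of all 38 genes, over 6.24 on the log2 scale. Its signals were 8.74 and 8.30 on the MyoD + Dox arrays, 7.34 and 6.26 on the uninduced arrays and 8.10 and 12.49 on the non-transduced arrays. The MyoD + Dox arrays lay above the uninduced arrays, and the second non-transduced array stood far above the rest. The log2 difference between MyoD + Dox and uninduced cells was 1.72 (standard error 1.35, adjusted p = 0.742). Stc2, a secreted glycoprotein, gave 6.69 and 6.40 on the MyoD + Dox arrays, 5.46 and 4.91 on the uninduced arrays and 5.44 and 9.49 on the non-transduced arrays. Both uninduced values of Stc2 were below background, so the gene was at least 1.43-fold higher in MyoD + Dox cells (adjusted p = 0.769 from limma). Such a bound sets the mean of the bright group against the background of the arrays where the gene was dim. Vldlr, a lipoprotein receptor, overlapped between MyoD + Dox and uninduced cells.

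**Figure D3:**
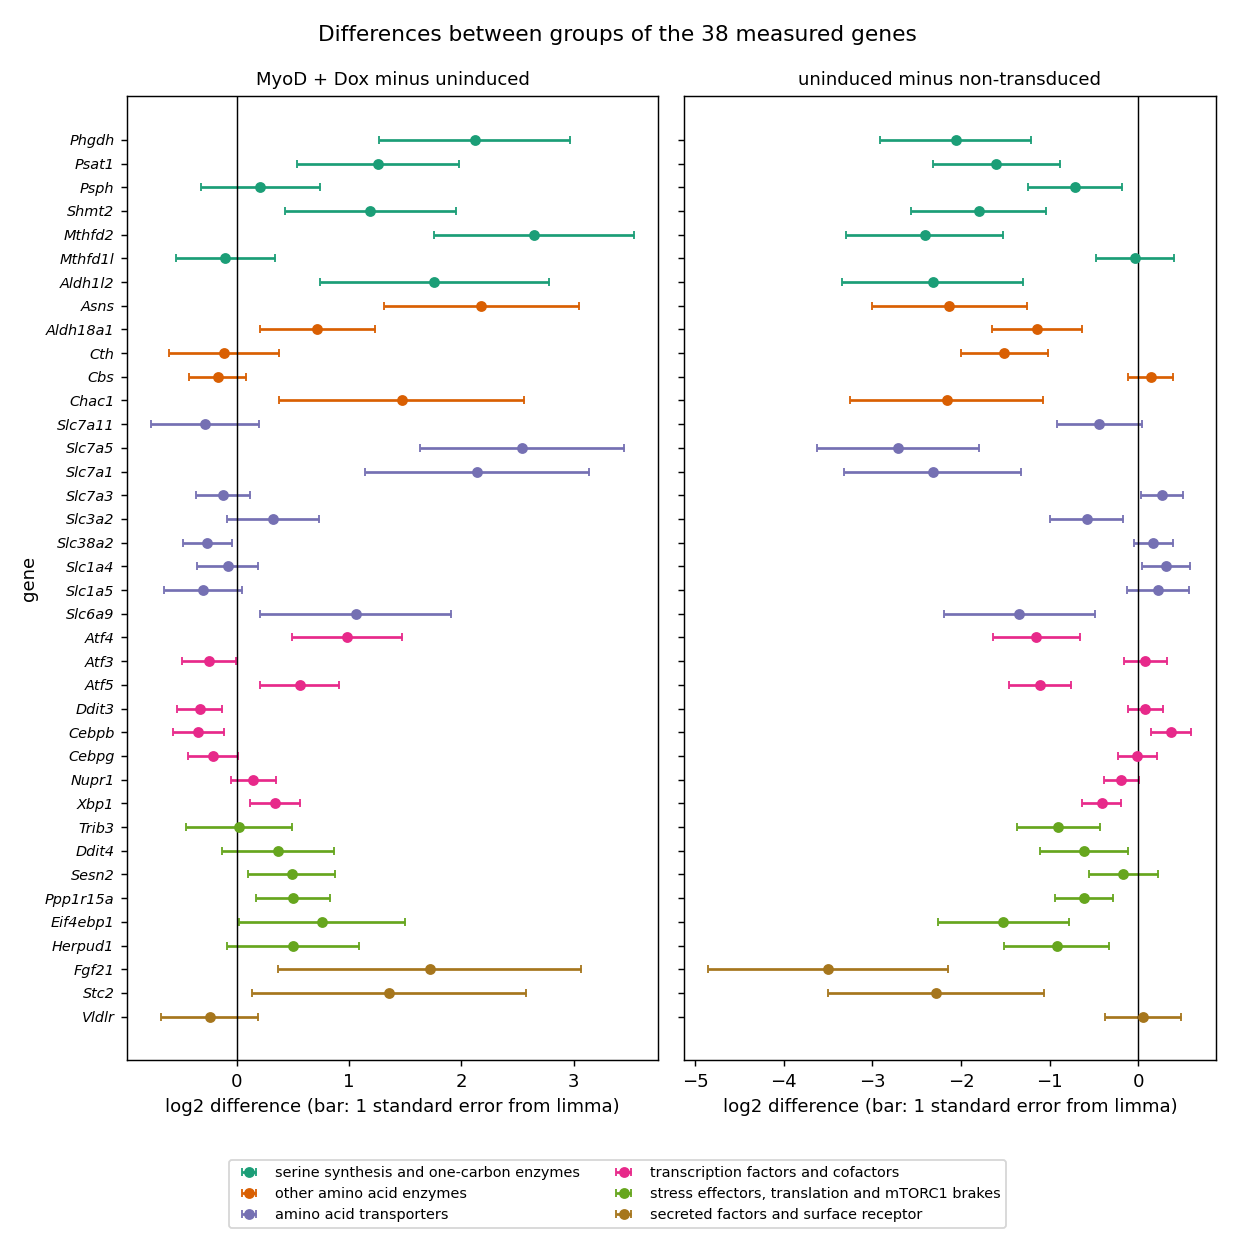
Log2 difference of each of the 38 genes for MyoD + Dox minus uninduced (left panel) and uninduced minus non-transduced (right panel), with bars of 1 standard error from limma and colours for the 6 roles. Differences in the left panel lie between -0.34 and 2.65 and those in the right panel between -3.50 and 0.37, so the right panel lies mostly below 0.

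Against non-transduced cells, which also had doxycycline, the arrays of MyoD + Dox cells overlapped for all but 3 of the 38 genes. No gene passed the adjusted threshold (0% of all genes), and all adjusted p of the 38 were 1. The median log2 difference was -0.21, against 0 over all genes. Arrays did not overlap for 0 of the 38 genes in the higher direction (13.9% of all genes) and for 3 in the lower direction (14.3% of all genes), namely Cth, Trib3 and Ddit3. At an unadjusted p under 0.05, limma called 0 of the 38 higher (1.6% of all genes) and 1 lower (1.34% of all genes). That gene was Cth, at 5.41 and 5.40 on the MyoD + Dox arrays against 6.26 and 7.78 on the non-transduced arrays. The first non-transduced value lay near that array's background of 6.01, so the bound given next rests mostly on the second. The MyoD + Dox values of Cth were below background, so it was at least 1.85-fold lower there (unadjusted p = 0.0174, adjusted p = 1 from limma). It no longer passed once MyoD + Dox array 1 was left out. Atf4 had a log2 difference of -0.17 (standard error 0.49) in this comparison. Fgf21 and Cth were the 2 genes with a measured difference of at least 2-fold lower, against 0.559% of all genes, and for Cth that size rests on signals below background. Without the first non-transduced array, 19 of the 38 genes were at least 2-fold lower and the median was -0.98. Without the second, 0 were 2-fold lower, the median was 0.34 and the Atf4 difference was 0.52. The shares of all genes without these arrays are not given here.

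Uninduced cells had lower signals than non-transduced cells for most of the set, with a median log2 difference of -0.80 against 0 over all genes. The measured difference was at least 2-fold lower in 17 of the 38, against 3.51% of all genes. Cth and Stc2 are among the 17 with uninduced signals below background, and with signals raised to the background the count was 16. Arrays did not overlap for 18 genes that were lower (19.2% of all genes) and for 2 that were higher (19.2% of all genes), Cebpb and Slc1a4. No gene passed the adjusted threshold in limma (0% of all genes), and the lowest adjusted p of the 38 was 0.637. At an unadjusted p under 0.05, limma called 5 lower (3.12% of all genes) and 0 higher (3.11% of all genes). The 5 were Atf5, Cth, Slc7a5, Mthfd2 and Fgf21. Without the second non-transduced array, the count of 17 was 3 and the median was -0.22. Without the first, 23 of the 38 genes were 2-fold lower and the median was -1.44. The shares of all genes without these arrays are not given here. The count of 5 rose without the first non-transduced array and fell without any other array.

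Atf5 was 2.16-fold lower in uninduced than in non-transduced cells (log2 difference -1.11, standard error 0.35, unadjusted p = 0.0206, adjusted p = 0.637). Both of its non-transduced arrays lay above both uninduced arrays. Cth had 5.65 and 5.37 on the uninduced arrays, both below background, and was at least 1.99-fold lower there than in non-transduced cells (unadjusted p = 0.0227, adjusted p = 0.637 from limma). The non-transduced arrays of Cth were at 6.26 and 7.78, the first near background, so this bound on their mean rests mostly on the second. Fgf21 had the largest difference, -3.50 (standard error 1.35, unadjusted p = 0.0428), which was -1.30 without the second non-transduced array. Slc7a5 differed by -2.71 (standard error 0.91, unadjusted p = 0.0264) and Mthfd2 by -2.41 (standard error 0.89, unadjusted p = 0.0369). Without overlap between the arrays, Asns differed by -2.13, Phgdh by -2.06, Aldh1l2 by -2.32, Slc7a1 by -2.32 and Chac1 by -2.16. Shmt2 differed by -1.80, Psat1 by -1.60, Eif4ebp1 by -1.52, Atf4 by -1.15 and Aldh18a1 by -1.14, also without overlap. The standard errors of these 10 genes ran between 0.49 and 1.09, their unadjusted p between 0.0503 and 0.097, and the adjusted p was 0.637 for each (limma). Much of these sizes came from the second non-transduced array. Without it, the 10 differences lay between -0.83 (Phgdh) and -0.32 (Eif4ebp1), with Atf4 at -0.46. Slc7a5 was then at -1.42 and Mthfd2 at -1.12.

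The arrays within a group differed for many of these genes. The second non-transduced array was the highest of the 6 for 27 of the 38 genes (71.1%), and for 25.6% of all genes. It was the highest for all 7 serine and one-carbon enzymes. The second uninduced array was the lowest for 19 of the 38 (50%), and for 21.5% of all genes. The MyoD + Dox pair were at least 2-fold apart for 0 of the 38 genes (3.02% of all genes), the uninduced pair for 8 (3.79% of all genes), and the non-transduced pair for 24 (15% of all genes). In 23 of those 24 the second non-transduced array was the higher, by a median over the 38 genes of 1.37 on the log2 scale.

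The 26 myotube genes had the same order of arrays in their mean signal as the 38 stress genes. Their mean log2 signal was 14.36 and 14.77 on the MyoD + Dox arrays, 12.52 and 10.48 on the uninduced arrays and 12.68 and 15.06 on the non-transduced arrays. The second non-transduced array was the highest for 20 of the 26 and the second uninduced array the lowest for all 26. The mean of the 38 stress genes was 9.70 and 9.79 on the MyoD + Dox arrays, 9.26 and 8.93 on the uninduced arrays and 9.37 and 10.76 on the non-transduced arrays. The part of myotube formation in the differences was not tested, and in bulk RNA more myotubes and more RNA per cell cannot be told apart. The 14 measured proliferation genes averaged 10.63 and 11.04 on the MyoD + Dox arrays, 10.79 and 10.50 on the uninduced arrays and 10.54 and 10.36 on the non-transduced arrays.

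**Figure D4:**
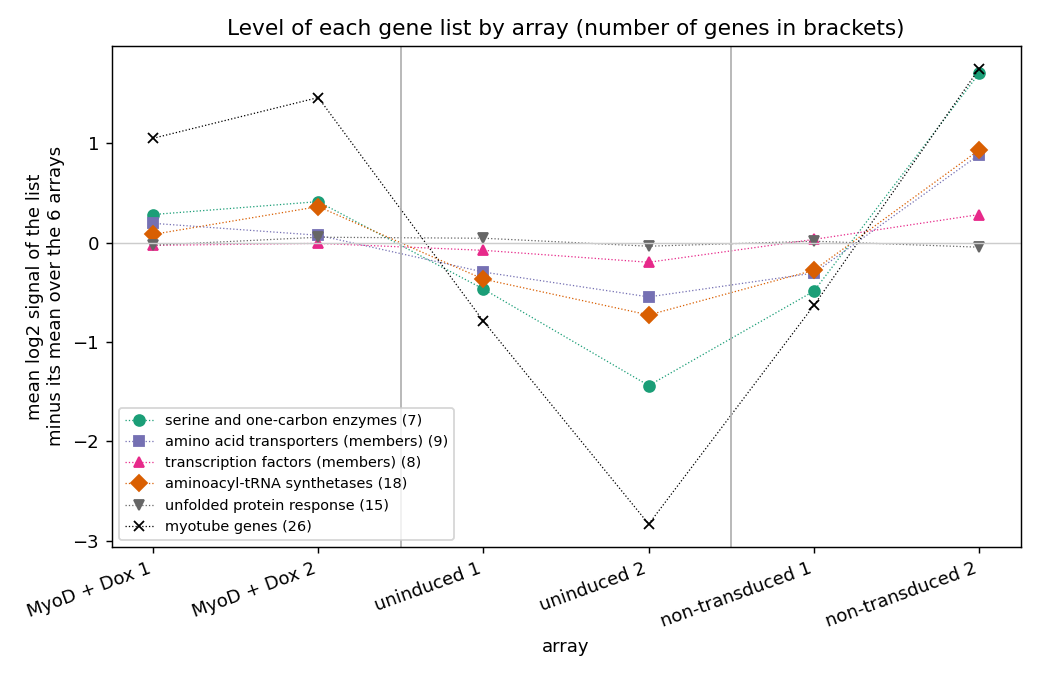
Mean log2 signal of 6 gene lists on each array, minus the list's mean over the 6 arrays, with arrays in the groups MyoD + Dox, uninduced and non-transduced and the number of genes in brackets. The serine and one-carbon enzymes run between 9.12 on the second uninduced array and 12.26 on the second non-transduced array in mean log2 signal, in the same order of those arrays as the myotube genes. The mean of the unfolded protein response list stays between 12.10 and 12.20, though single genes of that list differed in both directions.

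Other genes of the pathway were read from lists written from textbook knowledge. The cytosolic aminoacyl-tRNA synthetases, which load tRNAs and include known ATF4 targets, were higher without overlap in MyoD + Dox than in uninduced cells for 15 of the 18 measured (23.8% of all genes), and lower for 0 (24.8% of all genes). Their median log2 difference was 0.70, and 2 were higher at an unadjusted p under 0.05 (4.22% of all genes), Farsb and Lars, both with an adjusted p of 0.67 from limma. Gars, the glycyl-tRNA synthetase, had the largest difference, with 13.44 and 13.99 on the MyoD + Dox arrays, 12.56 and 11.63 on the uninduced arrays and 12.53 and 14.99 on the non-transduced arrays. Qars, the glutaminyl-tRNA synthetase, had the smallest, at -0.04. The second non-transduced array was the highest for 17 of the 18 synthetases. Of the 11 synthetase genes with a promoter window, 4 (36.4%) held the composite motif, against 4.5% of all genes with a window.

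The list of unfolded protein response genes, targets of the IRE1 and ATF6 arms, had differences in both directions. In MyoD + Dox against uninduced cells, 4 of 15 were higher and 5 lower without overlap, shares near the 23.8% and 24.8% of all genes, with a median log2 difference of -0.07. The second non-transduced array was the lowest of the 6 for 8 of the 15 (53.3%, against 24.9% of all genes). It was the highest for 4 (26.7%, against 25.6% of all genes). Atf6, the sensor itself, had the largest difference at 1.07, and the chaperone Hsp90b1 the smallest at -0.46. Hspa5, the chaperone BiP, gave 17.41 and 17.37 on the MyoD + Dox arrays, 17.50 and 17.43 on the uninduced arrays and 17.35 and 17.48 on the non-transduced arrays. Of 13 measured eIF2 kinases, their regulators and eIF2B subunits, 5 were higher and 5 lower without overlap (23.8% and 24.8% of all genes), from Eif2b3 at 0.73 to the kinase Eif2ak2 at -0.84. The 5 higher were Eif2ak1, Eif2b1, Eif2b3, Eif2b4 and Eif2b5, and the 5 lower were Eif2ak2, Eif2ak3, Eif2ak4, Impact and Oma1. Eif2b4 and Eif2b5 were below background on both uninduced arrays. Of 10 mitochondrial chaperones and proteases, 4 were higher and 1 lower without overlap (23.8% and 24.8% of all genes), from Afg3l2 at 0.80 to Yme1l1 at -0.11.

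The remaining serine, glycine and folate enzymes, which are not on the list of 40, had a median log2 difference of 0.02 between MyoD + Dox and uninduced cells, with 3 of 12 higher and 3 lower without overlap (23.8% and 24.8% of all genes). The ends of that list, Gldc and Amt, were below background on all 6 arrays. At an unadjusted p under 0.05, limma called 2 of the 12 lower (3.19% of all genes), Amt and Mthfd2l, and 0 higher (4.22% of all genes). Mthfd2l, above background, gave 8.68 and 8.61 on the MyoD + Dox arrays and 8.98 and 9.46 on the uninduced arrays. Its log2 difference to uninduced cells was -0.58 (standard error 0.23, adjusted p = 0.67 from limma) and to non-transduced cells -0.59. Of 15 further amino acid transporters, 6 were higher and 6 lower without overlap (23.8% and 24.8% of all genes), with a median of -0.04. Slc38a4, Slc7a8 and Slc7a7, which are counted there, were below background on the 4 arrays compared. The taurine carrier Slc6a6 was the highest of them at 1.43. The glutamate carrier Slc1a3 was the lowest, with 9.96 and 8.10 on the MyoD + Dox arrays, 11.75 and 12.16 on the uninduced arrays and 12.03 and 5.10 on the non-transduced arrays. Its second non-transduced array was thus the lowest of the 6 and below background. In the amino acid sensing and mTORC1 list, 6 of 15 were higher and 3 lower without overlap (23.8% and 24.8% of all genes). Rptor, the raptor subunit of mTORC1, gave 9.95 and 10.45 on the MyoD + Dox arrays, 8.59 and 7.65 on the uninduced arrays and 8.94 and 11.34 on the non-transduced arrays, a log2 difference of 2.08 between MyoD + Dox and uninduced cells (standard error 0.79, unadjusted p = 0.0411). Sesn1, a leucine sensor, had the smallest difference of that list at -1.0. At an unadjusted p under 0.05, limma called 2 of the 15 higher (4.22% of all genes), Rptor and Castor2, and 0 lower (3.19% of all genes). Castor2 gave 10.16 and 10.72 on the MyoD + Dox arrays and 9.28 and 9.49 on the uninduced arrays. The log2 difference of Castor2 was 1.06 (standard error 0.25, unadjusted p = 0.00627, adjusted p = 0.67 from limma). Against non-transduced cells, that of Castor2 was 1.09 and that of Rptor 0.06.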

How the data were processed

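RNA of differentiated C2C12 cells was measured on 6 Clariom S mouse arrays, 2 in each of 3 groups, which were taken from the submitters' labels. Extraction was by Trizol per the labels and by the RNeasy kit per the methods. What the authors deposited is 1 table of linear, normalized signal intensity per probe set. Affymetrix Expression Console is named in the processing notes of the submitters. In the methods, array files were analysed in the Transcriptome Analysis Console, and heat maps used signals normalized by SST-RMA (robust multi-array averaging after a signal space transformation). Whether the deposited table holds those signals is not stated. As the design allowed for linear values, log2 of the deposited intensity was taken, with no further normalization and no filter.

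Of 28846 probe sets, 19572 had 1 gene symbol, 0 had several and 9274 had none, which gave 19505 genes, 55 of them with several probe sets. All 19505 matched the mouse RefSeq table by Entrez identifier, and 0 symbols changed. Ddit3 has 2 probe sets, with mean log2 signals of 9.97 and 7.55. The background of an array was the 90th percentile of 23 background probe sets. Where neither array of a group exceeded it, the gene's fold there is a lower bound, written as "at least". The number of arrays limits the precision.

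The two-sided tests of limma 3.58.1 (lmFit, then eBayes) were run in R 4.3.3 on the 3 groups at once, so that 1 spread is estimated from the 6 arrays. P-values were adjusted by Benjamini-Hochberg over the 19505 genes and called at 0.05. The steps were tested on simulated data. The members, the lists and the rules were chosen with earlier results of these data known. All 38 measured members are accounted for. Values are given by array, with a difference and its error, for Atf4 and for members whose difference was at least 1 on the log2 scale without overlap of the arrays, or whose unadjusted p was under 0.05. From each pathway list the genes with the largest and the smallest difference are named. Farsb, Lars, Hspa5 and other genes beyond this rule were named after their values were seen. The composite motif was searched on both strands of the RefSeq promoter windows (GRCm38.p6), and excerpts hold 30 bases on each side of the motif. Results were recomputed with quantile normalization, with array medians subtracted, without the dimmest 40% of genes, with the trend and robust options of eBayes, in a fit of only the 4 arrays compared, with a replicate block, with probe sets averaged, with the methods' t-test, with signals raised to the background and without each array in turn. A crossed replicate block was added after seeing the data.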

Additional observations from a re-analysis of the deposited data

How the results depend on the processing

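With 2 arrays a group, every comparison here has low precision. Counts of the 38 at the alternative settings are given without the share over all genes at that setting. In MyoD + Dox against uninduced cells, none of the 13 genes that the naming rule picks passed the adjusted threshold in any of the 15 alternatives. Their signs held in all 15. The arrays of these genes did not overlap, so leaving out 1 array could not turn a sign. Several other settings change the spread but not the difference. The kept signs are therefore no test of how firm the differences are. The count of genes at least 2-fold higher lay between 10 and 14 over arrays left out, and was 11 with signals raised to the background. The number of the 38 called higher at an unadjusted p was 15 in the fit of the 4 arrays alone and 2 with the lowest 40% of genes left out. It was 2 with trend and robust, 2 by the methods' t-test and 0 with signals raised to the background. It also rose or fell with the array left out. The number called lower was 1 with the mean of probe sets and 1 with signals raised to the background. Among the 38, averaging probe sets changes the values of Ddit3 alone. Over all genes, 15 passed the adjusted threshold in the fit of the 4 arrays alone, and 0 to 15 over arrays left out. The median of the transporters was 0.12 with the lowest 40% left out and 0.10 with signals raised to the background, and -0.08 to 0.17 over arrays left out. That of the transcription factors was -0.13 to 0.07 over arrays left out.

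In MyoD + Dox against non-transduced cells, the methods' t-test called 1 gene in all after adjustment and 0 of the 38 lower at an unadjusted p, and signals raised to the background also gave 0. Over arrays left out, the genes called after adjustment numbered 0 to 169, of the 38 genes 0 to 5, those higher at an unadjusted p 0 to 6, those lower 0 to 20 and those at least 2-fold lower 0 to 19. Medians over arrays left out were -0.98 to 0.34 for the 38 genes, -0.88 to 0.24 for transporters, -1.29 to 0.30 for other enzymes, -2.95 to 0.42 for secreted factors, -1.32 to 0.64 for serine and one-carbon enzymes and -1.11 to 0.44 for stress effectors. The Atf4 difference was -0.86 to 0.52.

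In uninduced against non-transduced cells, the genes of the 38 called lower at an unadjusted p numbered 2 in the fit of the 4 arrays alone, 0 by the methods' t-test and 1 with signals raised to the background, and 1 to 24 over arrays left out. Over arrays left out, the genes called after adjustment numbered 0 to 2191, of the 38 genes 0 to 20, and those at least 2-fold lower 3 to 23. The median of the 38 was -1.44 to -0.22 and that of the transporters -1.09 to 0.05. The highest counts and both ends of each median in these comparisons came from leaving out 1 of the non-transduced arrays. Where 1 array of a group remains, it is assumed to vary like the other groups. The cause of these shifts was not tested.

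Same-numbered arrays did not deviate together in every pair of groups (correlation of deviations -0.05 for MyoD + Dox and uninduced, 0.41 for MyoD + Dox and non-transduced, and -0.34 for uninduced and non-transduced), so the numbers were not taken to pair samples. With the replicate block, 1 of the 38 was called higher in MyoD + Dox against uninduced cells at an unadjusted p. In uninduced against non-transduced cells, 6 of the 38 were called lower with the replicate block. A crossed replicate block, which follows no label and was chosen after these arrays were seen to deviate in opposite directions, gave 14, a count that this choice favours.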
